A study of Mus musculus with 14 samples.

Results

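The response described here is that of primary bone marrow-derived macrophages (pBMDMs) to ferroptotic fibroblast supernatant (4OHT) set against the supernatant of untreated, live fibroblasts (ctrl). Its members are all genes that passed edgeR's filter on low counts, 12851 of the 55414 genes in the count table, measured in 6 of the 14 libraries of the series. Genes of 3 lists, for cytokines, the cell cycle and sterol synthesis, were set aside, and the account covers the programmes and genes outside them.

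The macrophages came from wild-type C57BL/6N mice aged 6 to 9 weeks, were differentiated from bone marrow with M-CSF and were exposed to the conditioned media for 24 h. The supernatants came from Pfa1 cells, a mouse embryonic fibroblast (MEF) line whose 4-hydroxytamoxifen (4OHT)-dependent system turns on a Cre recombinase that deletes Gpx4, so that the fibroblasts die by ferroptosis while the macrophages keep the gene. The groups were ctrl (MEFs without treatment), 4OHT (MEFs given 1 μM 4OHT), 4OHT+Fer1 (MEFs given 4OHT and 1 μM Ferrostatin-1, which blocks ferroptosis), Fer1 (MEFs given Ferrostatin-1 alone) and medium (fresh culture medium, never in contact with MEFs). Each supernatant has 3 replicates and fresh medium has 2, and the replicate number is read here as the mouse of the study's methods. The sex of the mice, and whether each replicate received a supernatant of its own, are not given in the sources used here, so p-values measure the spread between these libraries.

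Macrophages read the contents of dying cells through surface receptors and answer with changes in gene expression. Ferroptosis, an iron-dependent death driven by lipid peroxidation, ends in membrane rupture and releases cytosol, oxidized lipids and metabolites into the medium. Among the programmes by which macrophages are told apart are antigen presentation on MHC class II, pattern recognition by C-type lectins, scavenging, matrix turnover and lipid synthesis, and each is taken in turn below.

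Libraries held between 7823051 and 11052352 counts, and the values below are counts per 1000000 (CPM) with edgeR's TMM scaling. QuantSeq reads the 3′ end of transcripts, so a count does not grow with the length of the gene. Values given as a set of 3 are always those of replicates 1, 2 and 3. The libraries of replicate 3 stood apart from those of replicates 1 and 2, with 8.5% to 10.6% of counts from mitochondrial genes in the 4 supernatant groups against 4.53% to 6.61%. Its part in the results was not tested beyond the replicate block and the fits without it.

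The defining macrophage markers were abundant in every library. Csf1r, the receptor for M-CSF, had 4544, 3634 and 4708 CPM in the 4OHT libraries and 2244, 2263 and 1671 CPM in the ctrl libraries. It did not pass the test, at a log2 fold change of 1.03 and a standard error of 0.34 (adjusted p = 0.219 by edgeR). The same held for Adgre1, which encodes F4/80, at a log2 fold change of 0.46 (adjusted p = 0.205). Summed over 7 macrophage markers, in CPM without TMM factors as for the other marker sums, the level lay between 28241 and 43573 CPM in 4OHT against between 19079 and 27477 in ctrl. Those sums do not overlap, and their part in the results below was not tested. Lyz2 made the largest part of them, at 36095, 22284 and 20678 CPM in 4OHT against 22534, 14288 and 19924 in ctrl. Within every replicate number, Lyz2, Csf1r, Adgre1 and Mertk were higher in 4OHT, whereas Itgam and Fcgr1 were lower. Cd68 changed in both directions. For 7 fibroblast markers the sum was between 15.5 and 48.9 CPM in 4OHT, between 18.8 and 51.4 CPM in ctrl and between 32.2 and 93.2 CPM in fresh medium, and the defining markers Pdgfra, Dcn and Thy1 were too low to be tested. Neutrophil markers summed to between 4.09 and 24.9 CPM in 4OHT against between 3.03 and 15.0 in ctrl, with Ly6g and Elane at 0 counts throughout. No dendritic, mast, B or erythroid marker was high enough to be tested, the dendritic sum staying at or under 0.452 CPM in 4OHT against 0.403 in ctrl. The T cell sum was between 1.89 and 3.17 CPM in 4OHT and between 0.309 and 1.17 CPM in ctrl, without overlap, all of it from Cd4 (log2 fold change 1.51, adjusted p = 0.264), since Cd3e, Cd3g and Cd8a had 0 counts. In bulk RNA, fewer cells of a type and less RNA per cell cannot be told apart. Gpx4 of the macrophages themselves, which no treatment targeted, stood at 15.9, 18.9 and 10.6 CPM in 4OHT against 20.5, 24.9 and 27.9 in ctrl (log2 fold change -0.76, adjusted p = 0.441).

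A gene is called here when its absolute log2 fold change exceeds 1 and its Benjamini-Hochberg adjusted p is under 0.05 by edgeR's quasi-likelihood test, fitted over all 14 libraries with the replicate number as a block. In 4OHT against ctrl, 45 genes were called higher (0.35% of those tested) and 98 lower (0.763%). The 3 lists set aside took most of the lower genes, 60 of them in the cell cycle list, 8 in the sterol list and 1 in the cytokine list, but only 1 of the higher genes, a cytokine. Outside these lists, 44 genes were called higher and 29 lower. With the adjusted p alone as the rule, 62 genes were higher (0.482%) and 130 lower (1.01%), of which 60 and 41 lay outside the lists. Every one of the 73 called genes moved the same way in all 3 replicate numbers, a share to be read beside the 15.4% of all tested genes that were higher and the 14.4% that were lower in all 3. For 32 of the 44 higher genes every 4OHT library exceeded every ctrl library, and for 20 of the 29 lower genes every 4OHT library lay under every ctrl library, while 5.2% and 5.84% of all tested genes did so. All 73 were called on these same libraries, which favours both kinds of share, so neither is a test. The lists used below held 31 of the 44 higher and 17 of the 29 lower genes, and the heat map of the 73 genes shows their level in each library. These lists were chosen with earlier results of these data known, so their counts and medians are descriptions and not tests. Counts per list are to be read beside the shares over all tested genes given here.

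**Figure D1:**
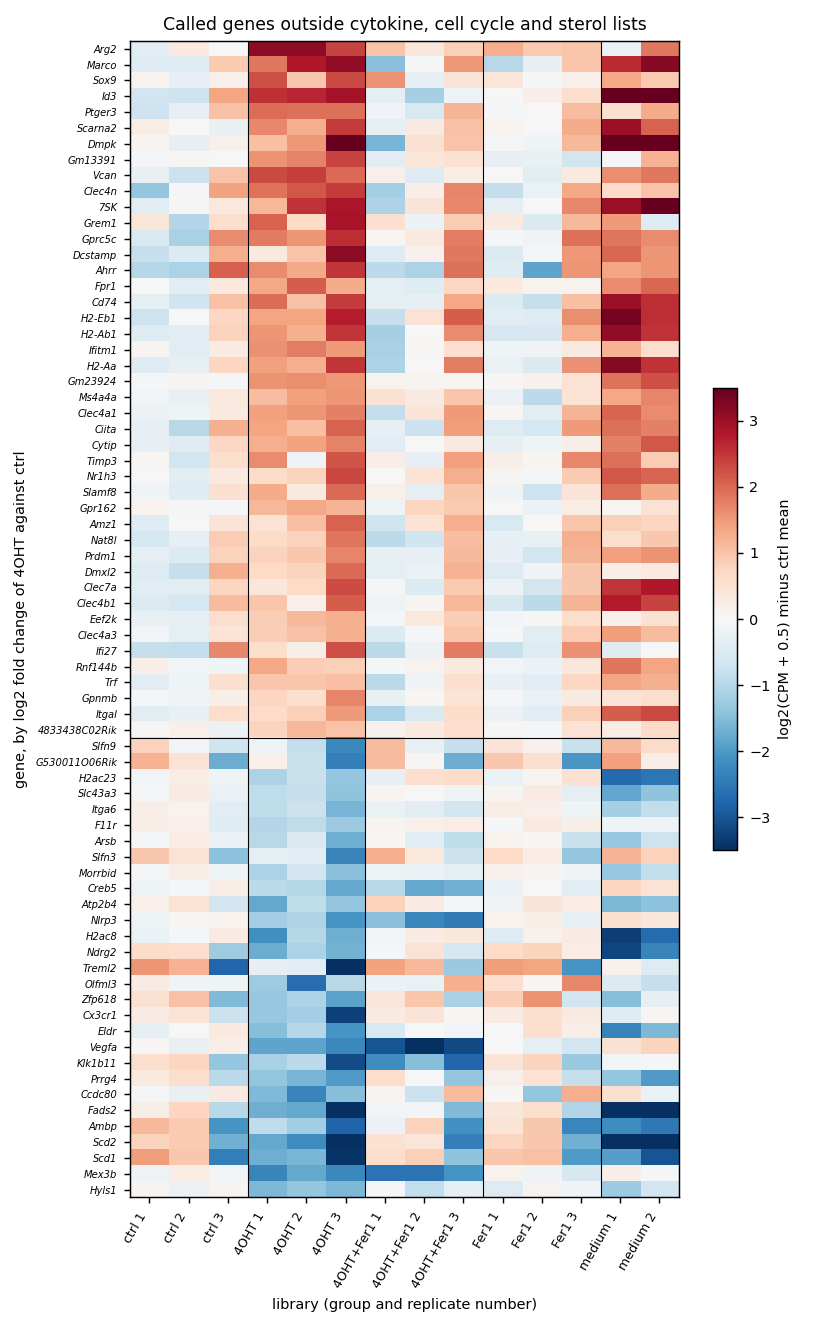
Level of the 73 called genes outside the cytokine, cell cycle and sterol lists in each of the 14 libraries, as log2(CPM + 0.5) minus the mean of the 3 ctrl libraries; rows are ordered by the log2 fold change of 4OHT against ctrl, and the horizontal line parts the 44 higher from the 29 lower genes, with colours saturating at 3.5 in either direction. The 2 libraries of fresh medium resemble the 4OHT libraries in many rows. In each supernatant group the library of replicate 3 is shifted from the others of its group in many rows.

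These counts depended on which libraries were fitted. Without replicate 1, 0 genes outside the lists were called higher and 2 lower (965 genes of all lists at an unadjusted p under 0.05). Without replicate 2 there were 0 and 0 (726 at an unadjusted p under 0.05), and without replicate 3 there were 93 and 50. Leaving out a single library gave 7 and 5 without 4OHT replicate 1, 9 and 6 without 4OHT replicate 2, 85 and 36 without 4OHT replicate 3, 6 and 5 without ctrl replicate 1, 8 and 6 without ctrl replicate 2 and 44 and 34 without ctrl replicate 3. DESeq2 in place of edgeR called 83 and 45, and edgeR without the replicate block 1 and 1. Fitted to the 6 libraries of 4OHT and ctrl alone, with the block, edgeR called 0 and 0, with 835 genes under 0.05 by the unadjusted p. Of the 75 genes named below that had an adjusted p under 0.05, 17 passed in none of the 9 edgeR fits that left out a replicate or a library, 10 passed in at least 5, and none passed in all. Those 10 were Fads2, Scd2, Cd74, Cytip, Grem1, H2ac8, Id3, Vegfa, Itga6 and Scd1. The 17 that passed in none were Arsb, Bcl2a1b, Cd24a, Cd300lf, Creb5, Dcstamp, Dmpk, Eldr, Hyls1, Morrbid, Nr1h3, Rasgrp3, Scarna2, Slfn9, Sox9, Tgfbi and Ulbp1.

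A set of antigen presentation genes was higher in 4OHT. MHC class II molecules carry peptides of engulfed proteins to CD4 T cells, the invariant chain Cd74 guards their groove on the way to the lysosome, and CIITA is the coactivator on which transcription of these genes depends. Of 17 listed genes 16 were tested, and 5 were called higher and 0 lower, with a median log2 fold change of 0.46 beside 0.01 for all tested genes. The log2 fold change was above 0 for 10 of the 16 and below 0 for 6, the lowest being -0.50. Of all 12851 tested genes, 6532 were above 0 and 6319 below. H2-Ab1, the β chain of I-A, stood at 128, 104 and 253 CPM in 4OHT against 32.1, 34.2 and 76.7 in ctrl. Every 4OHT library lay above every ctrl library. This was a rise of 1.79 on the log2 scale (standard error 0.30, adjusted p = 0.0155). H2-Aa, the α chain, had 93.4, 83.0 and 195 CPM against 24.6, 27.9 and 57.6 CPM, a rise of 1.75 on the log2 scale (standard error 0.32, adjusted p = 0.0216). For H2-Eb1, the β chain of I-E, the values were 59.1, 59.2 and 155 CPM against 13.4, 22.4 and 37.8 CPM (log2 fold change 1.84, standard error 0.35, adjusted p = 0.0262). The groups of both chains were again separate, and replicate 3 had the highest level in both groups. Ciita rose from 12.3, 7.44 and 36.0 CPM in ctrl to 39.6, 31.3 and 64.2 CPM in 4OHT (log2 fold change 1.56, standard error 0.25, adjusted p = 0.0128). Here the ctrl library of replicate 3 lay above the 4OHT library of replicate 2, so the groups overlapped. Cd74 rose by 1.86 on the log2 scale and passed in 7 of the 9 fits with libraries left out, whereas H2-Ab1 and Ciita passed in 3, H2-Aa in 2 and H2-Eb1 in 1. Among the members that did not pass were the cathepsin Ctss, at 5101 ± 552 CPM in 4OHT against 4209 ± 542 in ctrl (SD, n = 3 each, log2 fold change 0.28), and H2-DMb1, a chain of the peptide-loading chaperone, with a log2 fold change of 0.59 (adjusted p = 0.398).

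The class II promoters are shown because the genes moved together and are known to share a control region, in which the Y box, an inverted CCAAT sequence bound by NF-Y, lies close to the start of transcription. The last 200 bases before the start are printed from RefSeq (build GRCm38.p6), with the letters CTGATTGG of the Y box in capitals and, in H2-Aa, also TGACGTCA, the cyclic AMP response element.
H2-Aa (chr17:34287824-34288023, minus strand): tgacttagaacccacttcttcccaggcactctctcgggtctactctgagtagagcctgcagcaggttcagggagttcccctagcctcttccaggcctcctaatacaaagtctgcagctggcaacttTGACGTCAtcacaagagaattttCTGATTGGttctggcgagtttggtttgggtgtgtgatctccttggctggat
H2-Eb1 (chr17:34305667-34305866, plus strand): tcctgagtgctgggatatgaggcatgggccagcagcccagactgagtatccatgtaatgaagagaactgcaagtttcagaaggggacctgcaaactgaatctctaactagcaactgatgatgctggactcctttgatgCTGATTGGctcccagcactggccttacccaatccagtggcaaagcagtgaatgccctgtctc
In the 250 bases before the start, CTGATTGG occurs on either strand in 3.83% of 32851 promoters of that table and TGACGTCA in 1.55%. The first begins 51 bases before the start of H2-Aa and 62 bases before that of H2-Eb1, and the second 74 bases before that of H2-Aa. Of 12 tested class II genes with a promoter in the table, 3 held the Y box letters, these and H2-Oa, which was not called. The called genes H2-Ab1, Ciita and Cd74 have no promoter in that table and were not searched. A match of letters is a description and not evidence of binding.

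C-type lectins were the other receptor family with 5 called members. These receptors bind sugars on microbes and dead cells, and several signal through FcRγ or Syk. Of 25 listed genes 19 were tested, 5 were called higher and 0 lower, and the median log2 fold change was 0.40. The log2 fold change was above 0 for 14 of the 19 and below 0 for 5, the lowest being -0.88. In all 3 replicate numbers, 10 were higher and 2 lower, beside 15.4% and 14.4% of all tested genes. Clec4n, which encodes Dectin-2, stood at 145, 176 and 213 CPM in 4OHT against 15.0, 37.1 and 103.4 in ctrl (log2 fold change 2.27, standard error 0.36, adjusted p = 0.0128). All 4OHT libraries lay above all ctrl libraries, but the difference within replicate 3 was much the smallest. Clec7a, which encodes the β-glucan receptor Dectin-1, had 182, 222 and 675 CPM in 4OHT against 105, 106 and 233 in ctrl (log2 fold change 1.14, standard error 0.19, adjusted p = 0.0153). Clec4a1 stood at 346, 374 and 435 CPM against 111, 115 and 160 CPM (log2 fold change 1.61, adjusted p = 0.0388). Clec4a3 and Clec4b1, of the same gene cluster, rose by 1.07 (adjusted p = 0.0335) and 1.14 (adjusted p = 0.0262) on the log2 scale. Their neighbour Clec4a2 did not pass (log2 fold change 0.88, adjusted p = 0.0579), nor did Clec4d, the partner chain of Mincle, at 785 ± 98.2 CPM in 4OHT against 595 ± 90.8 in ctrl (SD, n = 3 each, adjusted p = 0.360). The Clec4a genes are close paralogs between which counting could have divided reads. Of the 5 called lectins, Clec4n, Clec7a and Clec4b1 passed in 3 of the 9 fits with libraries left out and Clec4a1 and Clec4a3 in 2.

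Other receptors moved singly rather than as families. Marco, a scavenger receptor for particles and oxidized lipids, stood at 4.43, 9.07 and 11.4 CPM in 4OHT against 0.506, 0.503 and 2.10 in ctrl (log2 fold change 3.28, adjusted p = 0.0157). Gpnmb, a glycoprotein of lysosomes and lipid-laden macrophages, rose from 1985, 1934 and 2416 CPM to 3522, 3184 and 6810 CPM (log2 fold change 1.02, adjusted p = 0.0158). These were the only 2 of 25 tested scavenger and phagocytic receptors that passed. Stab1 had 466 ± 62.8 CPM in 4OHT against 321 ± 19.1 in ctrl (SD, n = 3 each, adjusted p = 0.386). Of 19 tested receptors for chemoattractants, 1 was called higher and 1 lower. Fpr1, the receptor for formyl peptides of bacteria and mitochondria, rose from 1.62, 1.11 and 2.21 CPM to 4.85, 8.61 and 4.68 CPM (log2 fold change 1.91, adjusted p = 0.0462). Cx3cr1, the fractalkine receptor, fell from 574, 657 and 278 CPM to 186, 207 and 48.8 CPM (log2 fold change -1.84, standard error 0.31, adjusted p = 0.0157). In both genes the groups were separate. The chemokine receptor Ccr2 did not pass (log2 fold change -0.90, adjusted p = 0.490). Ptger3, the receptor EP3 for prostaglandin E2, was the only 1 of 28 tested genes of prostanoid and cyclic nucleotide signalling to pass, at 4.74, 4.62 and 4.56 CPM in 4OHT against 0.304, 0.603 and 2.21 in ctrl (log2 fold change 2.53, adjusted p = 0.0363). Pla2g7, which hydrolyses oxidized phospholipids, missed the threshold, with a log2 fold change of 1.15 (adjusted p = 0.0842). Each of these called receptor genes passed in 2 or 3 of the 9 fits with libraries left out.

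**Figure D2:**
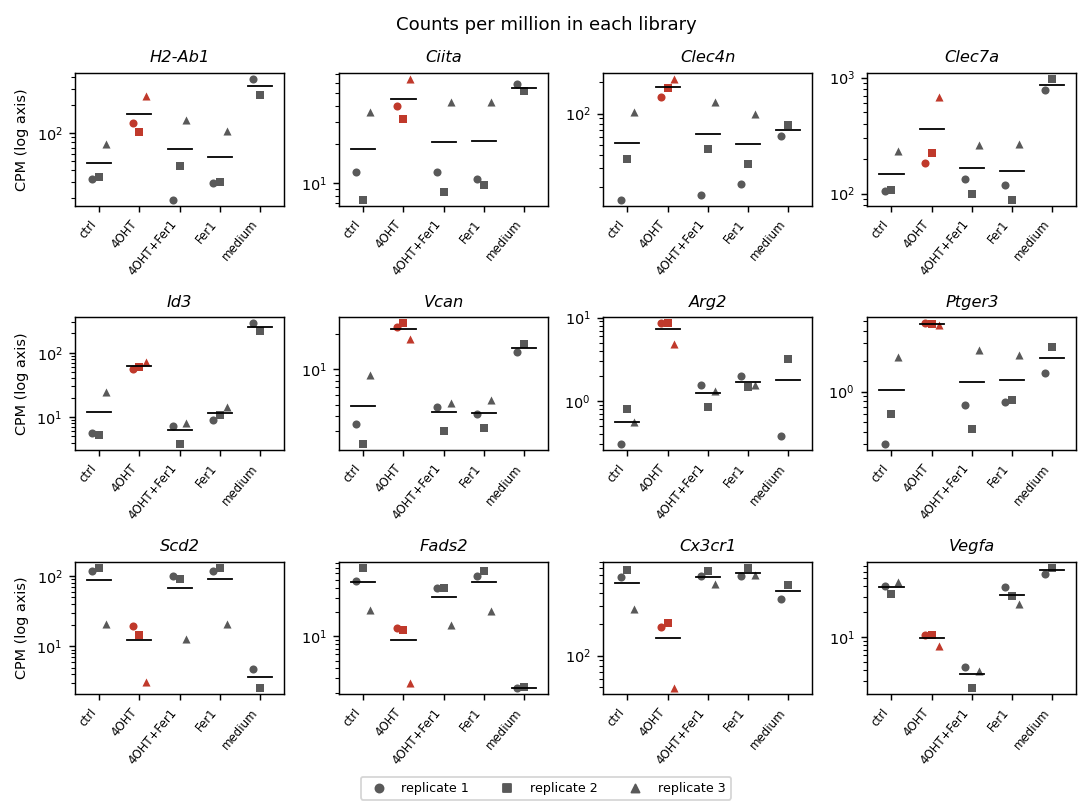
CPM (log axis) of 12 genes in each library, by group; circles, squares and triangles are replicates 1, 2 and 3, bars are group means, and 4OHT libraries are red. In 4OHT, H2-Ab1, Clec4n, Id3, Vcan, Arg2 and Ptger3 lie above all ctrl libraries and Cx3cr1, Vegfa and Fads2 below them, Scd2 being lower in 4OHT within every replicate number and below all ctrl libraries as well.

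Genes of TGF-β and BMP signalling and of the matrix included some of the largest rises. Id3, an inhibitor of helix-loop-helix transcription factors that BMP signals induce, stood at 56.3, 60.8 and 72.5 CPM in 4OHT against 5.57, 5.33 and 24.6 in ctrl. The groups were separate, with the ctrl library of replicate 3 nearest to 4OHT. It rose by 2.66 on the log2 scale (standard error 0.36, adjusted p = 0.00737), and the gene passed in 7 of 9 fits with libraries left out. Grem1, a secreted antagonist of BMPs, rose from 3.04, 0.804 and 3.53 CPM to 10.6, 3.81 and 19.2 CPM (log2 fold change 2.14, standard error 0.30, adjusted p = 0.00898) and also passed in 7 of 9. Tgfbi, a matrix protein induced by TGF-β, fell from 915, 769 and 588 CPM to 628, 532 and 293 CPM (log2 fold change -0.69, adjusted p = 0.0450). It passed in none of the 9 fits. Of 36 tested genes in this list, these were the 3 that passed an adjusted p of 0.05. Nrros, which holds latent TGF-β at the surface of myeloid cells, stood at 360 ± 24.5 CPM in 4OHT against 246 ± 19.5 in ctrl (SD, n = 3 each, adjusted p = 0.116), and the receptor Tgfbr1 at 52.7 ± 3.90 and 75.6 ± 22.1 CPM (adjusted p = 0.452).

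Among 40 tested genes of the matrix and its proteases, 2 were called higher and 2 lower, and the median log2 fold change was 0.55. Vcan, the proteoglycan versican, rose from 3.44, 2.31 and 8.94 CPM to 22.9, 24.7 and 18.1 CPM (log2 fold change 2.32, standard error 0.36, adjusted p = 0.0126). Its 4OHT libraries all lay above its ctrl libraries. Timp3, an inhibitor of metalloproteinases, had 11.6, 2.99 and 17.3 CPM against 3.55, 1.91 and 5.41 CPM, with overlapping groups (log2 fold change 1.43, adjusted p = 0.0437). Ccdc80, an adhesion protein of the matrix, fell from 3.65, 3.02 and 4.75 CPM to 0.948, 0.363 and 1.01 CPM (log2 fold change -2.40, adjusted p = 0.0248). Olfml3, a secreted glycoprotein of fibroblasts and microglia, fell from 16.7, 12.4 and 12.1 CPM to 5.48, 1.72 and 6.71 CPM (log2 fold change -1.76, adjusted p = 0.0412). The sheddase Adam17 (log2 fold change 0.33) and the protease inhibitor Serpinb6a (0.43) did not pass. Grem1 is also on the list of 31 fibroblast genes, of which 24 were tested, 1 passed and the median log2 fold change was 0.43. The summed level of that list was between 63.2 and 208 CPM in 4OHT, between 51.2 and 152 CPM in ctrl and between 106 and 334 CPM in fresh medium. The collagens Col1a1 (log2 fold change -0.36, adjusted p = 0.703) and Col3a1 (-1.07, adjusted p = 0.566) did not pass. The part of fibroblast RNA in Grem1, Timp3, Ccdc80 and Olfml3 was not tested.

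**Figure D3:**
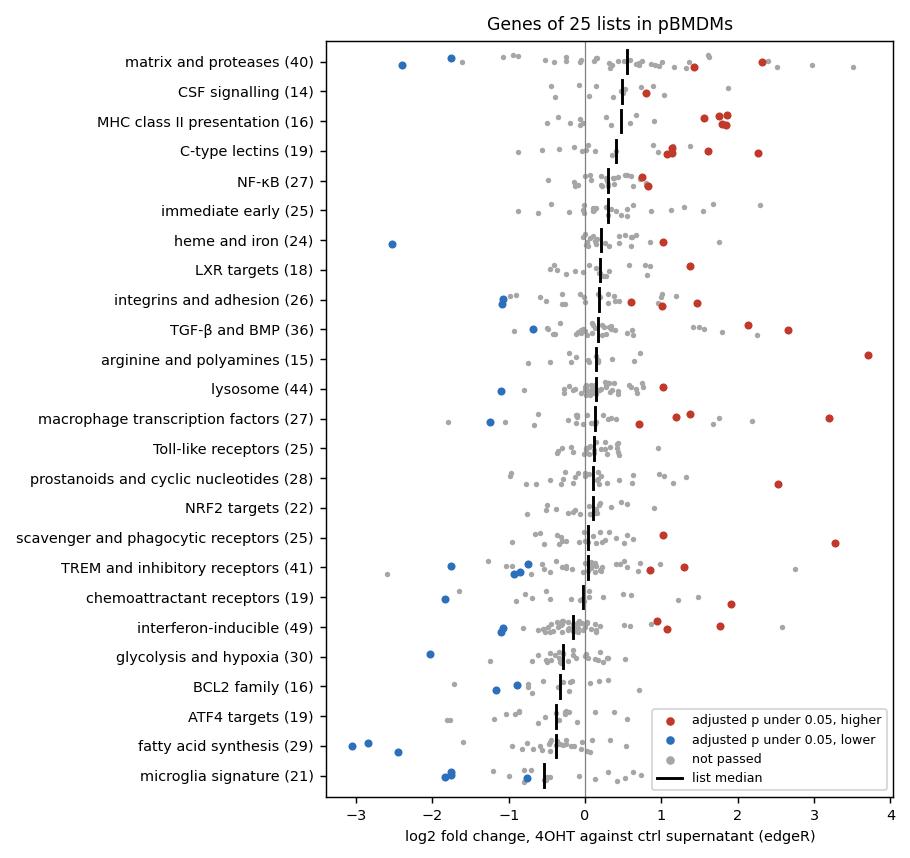
Log2 fold change of 4OHT against ctrl for each tested gene of 25 lists, ordered by list median (black bars), with the number of genes tested in parentheses; red and blue points have an adjusted p under 0.05 by edgeR. Red points gather in MHC class II presentation and the C-type lectins, 5 in each, and blue points number 3 in fatty acid synthesis, 4 in the microglia signature and 4 in the TREM and inhibitory receptors.

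Of 27 tested macrophage transcription factors, 3 were called higher and 1 lower. Prdm1, which encodes the repressor BLIMP-1, rose by 1.19 on the log2 scale (standard error 0.19, adjusted p = 0.0128), from 12.9, 11.7 and 29.4 CPM to 29.2, 31.8 and 54.7 CPM. Nr1h3, which encodes the oxysterol receptor LXRα, rose from 4.46, 3.32 and 5.74 CPM to 7.16, 7.98 and 24.4 CPM (log2 fold change 1.37, adjusted p = 0.0270). All 4OHT libraries of Nr1h3 lay above all ctrl libraries, the highest by far being replicate 3. Sox9, a factor of cartilage and progenitor cells, had at most 3 counts in every ctrl library and stood at 3.06, 0.907 and 3.16 CPM in 4OHT, a mean at least 7.42-fold higher than the mean limit that 3 counts set in the ctrl libraries. Cebpa, a factor of the myeloid lineage, rose by 0.71 (adjusted p = 0.0197), to 64.4, 59.9 and 131 CPM from 37.7, 37.0 and 82.9 CPM. Creb5 fell from 97.5, 107 and 129 CPM to 58.5, 55.1 and 31.4 CPM (log2 fold change -1.24, adjusted p = 0.0283). The lineage factors Irf8 (391.9 ± 39.6 and 355 ± 46.5 CPM in 4OHT and ctrl, SD, n = 3 each, adjusted p = 0.826) and Zeb2 (adjusted p = 0.852) did not pass. Prdm1 passed in 3 of the 9 fits with libraries left out, Cebpa in 2, and Nr1h3, Sox9 and Creb5 in none. Of the 18 tested targets of LXR, Nr1h3 itself was the only one that passed, and the median was 0.19. Apoe, the best known of these targets, stood at 5351, 5448 and 4913 CPM in 4OHT against 3303, 3385 and 1951 in ctrl, separate groups whose log2 fold change of 0.82 had a standard error of 0.53 (adjusted p = 0.673). Ahrr, the repressor of the aryl hydrocarbon receptor and one of its targets, was the only 1 of 6 tested genes of that pathway to pass, at 28.9, 22.8 and 52.1 CPM in 4OHT against 4.15, 3.82 and 39.3 in ctrl (log2 fold change 1.97, adjusted p = 0.0475). Its ctrl library of replicate 3 lay above the 4OHT libraries of replicates 1 and 2.

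The desaturase genes Scd1, Scd2 and Fads2 were lower in 4OHT. Fatty acid desaturases put double bonds into acyl chains, Scd1 and Scd2 making monounsaturated and Fads1 and Fads2 polyunsaturated fatty acids, whose phospholipids are the substrate of lipid peroxidation. Of 29 tested genes of fatty acid synthesis, 0 were called higher and 3 lower, and the median log2 fold change was -0.38. Scd2 stood at 19.5, 14.6 and 3.16 CPM in 4OHT against 118, 129 and 20.98 in ctrl (log2 fold change -2.84, standard error 0.21, adjusted p = 0.000106). Fads2 fell from 48.6, 70.9 and 21.1 CPM to 12.5, 11.8 and 2.66 CPM (log2 fold change -2.45, standard error 0.19, adjusted p = 0.000133). In both genes every 4OHT library lay below every ctrl library, and replicate 3 was the lowest of both groups. Scd1 fell from 18.3, 12.6 and 0.773 CPM to 1.58, 1.72 and 0.127 CPM (log2 fold change -3.05, adjusted p = 0.00898), with the ctrl library of replicate 3 below 2 of the 4OHT libraries. Scd2 and Fads2 passed in 8 of the 9 fits with libraries left out, more than any other named gene, and Scd1 in 5. Fads1 (77.8 ± 13.6 and 105 ± 17.5 CPM, SD, n = 3 each, log2 fold change -0.44, adjusted p = 0.186) and Acsl4, which activates polyunsaturated fatty acids for membranes (-0.29, adjusted p = 0.395), did not pass.

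In central metabolism single genes stood out. Arg2, the mitochondrial arginase, rose from 0.304, 0.804 and 0.552 CPM to 8.53, 8.52 and 4.81 CPM, the largest rise among the called genes outside the 3 lists (log2 fold change 3.699, standard error 0.59, adjusted p = 0.0128). Of 15 tested genes of arginine and polyamine metabolism it alone passed, glutamine synthetase Glul missing the threshold (log2 fold change 0.73, adjusted p = 0.0558). Vegfa, the vascular growth factor that hypoxia induces, fell from 40.0, 32.7 and 45.6 CPM to 10.5, 10.6 and 7.85 CPM (log2 fold change -2.03, standard error 0.24, adjusted p = 0.00406) and passed in 7 of 9 fits with libraries left out. It was the only 1 of 30 tested genes of glycolysis and the hypoxia response to pass, and the median was -0.29. Lactate dehydrogenase Ldha stood at 263 ± 99.4 CPM in 4OHT against 389 ± 94.5 in ctrl (SD, n = 3 each, adjusted p = 0.154). Among 24 tested genes of heme and iron handling, transferrin, Trf, rose from 98.5, 118 and 193 CPM to 254, 255 and 271 CPM (log2 fold change 1.02, adjusted p = 0.0478), and Ambp, whose product yields the heme-binding α1-microglobulin, fell from 7.19, 6.13 and 0.331 CPM to 1.37, 0.997 and 0 CPM (log2 fold change -2.53, adjusted p = 0.0205). The heme transporter Slc48a1 did not pass (log2 fold change 0.61, adjusted p = 0.561). None of 19 tested targets of ATF4, the factor of amino acid and endoplasmic reticulum stress, passed, with a median of -0.38. Pck2 stood at 34.3 ± 3.07 CPM in 4OHT against 49.1 ± 5.15 in ctrl (SD, n = 3 each, adjusted p = 0.0866). None of 22 tested targets of NRF2, the factor of the antioxidant response, passed either, with a median of 0.10 and the catalase gene Cat at a log2 fold change of 0.34 (adjusted p = 0.430).

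Some genes of the signature of microglia, the macrophages of the brain, were lower. Of 21 tested genes, 12 were lower and 2 higher in all 3 replicate numbers, beside 14.4% and 15.4% of all tested genes. The median log2 fold change was -0.53, and 3 were called lower and 0 higher. Besides Cx3cr1 and Olfml3, these were Treml2, at 17.9, 16.4 and 0.506 CPM in 4OHT against 65.3, 52.1 and 2.76 in ctrl (log2 fold change -1.75, standard error 0.33, adjusted p = 0.0249), and, under the fold threshold, Rasgrp3 (log2 fold change -0.77, adjusted p = 0.0460). The ctrl library of replicate 3 of Treml2 lay below the 4OHT libraries of replicates 1 and 2, so the groups overlapped. Fcrls had 283, 345 and 150 CPM against 649, 762 and 363 CPM and missed the threshold (log2 fold change -1.20, adjusted p = 0.0805), as did Rnase4 (-0.999, adjusted p = 0.117). Among 41 tested TREM, CD300, SLAM and inhibitory receptors and their ligands, 2 passed upward and 4 downward at an adjusted p under 0.05. Slamf8 rose from 5.17, 4.22 and 8.83 CPM to 14.9, 7.52 and 24.4 CPM (log2 fold change 1.29, adjusted p = 0.00990). Cd274, which encodes the checkpoint ligand PD-L1, rose by 0.85 on the log2 scale (adjusted p = 0.0375). Cd24a, a ligand of Siglec-10 family receptors, fell from 6.58, 10.8 and 7.62 CPM to 3.37, 5.44 and 4.18 CPM (log2 fold change -0.94, adjusted p = 0.0368). The inhibitory receptor Cd300lf (-0.75, adjusted p = 0.0375) and Ulbp1, a ligand of the killer cell receptor NKG2D (-0.85, adjusted p = 0.0422), were lower as well. The adaptor Tyrobp and the receptor Sirpa did not pass (adjusted p = 0.437 and 0.795).

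Adhesion molecules changed in both directions. Itga6, the laminin receptor α6, fell from 796, 742 and 524 CPM to 365, 401 and 219 CPM (log2 fold change -1.08, standard error 0.15, adjusted p = 0.00737), with separate groups, and passed in 6 of 9 fits with libraries left out. F11r, the junctional adhesion molecule JAM-A, fell from 46.9, 44.6 and 29.6 CPM to 19.2, 21.3 and 16.1 CPM (log2 fold change -1.09, adjusted p = 0.0142). Cytip, which regulates the activity of β2 integrins through cytohesin, rose from 18.1, 16.3 and 37.5 CPM to 54.3, 60.02 and 75.5 CPM (log2 fold change 1.46, standard error 0.18, adjusted p = 0.00468) and passed in 7 of 9. Itgal, the α chain of LFA-1, rose by 1.01 (adjusted p = 0.0203) and Itga4, the α chain of VLA-4, by 0.60 (adjusted p = 0.0463). Itgam, which encodes CD11b, was among the 21 of 26 tested members that did not pass (log2 fold change -0.26, adjusted p = 0.571).

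Of 49 tested interferon-inducible genes, 3 passed upward and 2 downward, and the median log2 fold change was -0.15. Ifitm1 rose by 1.77 (adjusted p = 0.0377), Ifitm2 by 0.95 (adjusted p = 0.0270) and Ifi27 by 1.07 (adjusted p = 0.0377) on the log2 scale. Ifitm2 stood at 258, 272 and 212 CPM in 4OHT against 126, 125 and 137 in ctrl, with little difference between replicates. The Schlafen genes Slfn9 (log2 fold change -1.07, adjusted p = 0.0293) and Slfn3 (-1.10, adjusted p = 0.0300) fell, Slfn9 from 173, 92.8 and 60.6 CPM to 89.0, 55.2 and 20.5 CPM. Ifi27l2a, one of the most abundant members, had 562 ± 409 and 879 ± 470 CPM in 4OHT and ctrl (SD, n = 3 each, adjusted p = 0.275). The IFITM and Schlafen genes are close paralogs, so their division of reads is uncertain.

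Genes around NF-κB moved by less than a log2 fold change of 1. Of 27 tested, 2 passed and 0 were called, and the median was 0.30. In all 3 replicate numbers, 15 were higher and 1 lower, beside 15.4% and 14.4% of all tested genes. Tnfaip2 rose from 209, 253 and 373 CPM to 422, 441 and 595 CPM (log2 fold change 0.83, standard error 0.14, adjusted p = 0.0136), and Nfkb2, which encodes p100/p52, rose by 0.75 (adjusted p = 0.0310). Nfkbia, the inhibitor IκBα, stood at 459 ± 21.4 and 381 ± 85.1 CPM (SD, n = 3 each, adjusted p = 0.488). None of 25 tested immediate early genes and none of 25 genes of Toll-like receptors and their adapters passed, with medians of 0.30 and 0.12. Nlrp3, the inflammasome sensor, fell from 20.5, 24.1 and 25.5 CPM to 9.90, 10.97 and 5.19 CPM (log2 fold change -1.48, adjusted p = 0.0212) and was the only 1 of 14 tested inflammasome genes to pass. Of 14 tested genes of CSF signalling, Csf2rb, the shared β chain of the GM-CSF, IL-3 and IL-5 receptors, rose from 247, 198 and 403 CPM to 449, 360 and 632 CPM (log2 fold change 0.79, adjusted p = 0.0174), and the median was 0.48. In the BCL2 family and its regulators, the noncoding RNA Morrbid (log2 fold change -1.16, adjusted p = 0.0295) and Bcl2a1b (-0.89, adjusted p = 0.0396), an antiapoptotic gene with near-identical copies, were lower among 16 tested. Bcl2l1 did not pass (log2 fold change -0.74, adjusted p = 0.439). Of 44 lysosomal genes, Gpnmb was called higher and Arsb, arylsulfatase B, lower (log2 fold change -1.10, adjusted p = 0.0450), while Psap, the precursor of the saposins, did not pass (adjusted p = 0.704). None of 14 tested complement genes passed, 1 of 10 in the MS4A and TMEM176 families did (Ms4a4a, log2 fold change 1.65, adjusted p = 0.0422), and of 8 small noncoding RNAs matched to the list Scarna2 did (2.46, adjusted p = 0.0462). The listed symbol Rn7sk was not matched, but the small RNA 7SK was called higher. It stood at 42.1, 109 and 138 CPM in 4OHT against 13.8, 19.1 and 23.9 in ctrl (log2 fold change 2.21, adjusted p = 0.00935 by edgeR). In fresh medium it had 149 and 244 CPM, above every 4OHT library. 7SK is left out of the counts of named genes.

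A further group of called genes lay on none of these lists. Dmpk, the myotonic dystrophy kinase, rose from 1.82, 1.31 and 1.99 CPM to 4.004, 5.71 and 28.9 CPM (log2 fold change 2.45, adjusted p = 0.0481), the 4OHT library of replicate 3 standing far above the other two. Dcstamp, needed for fusion of osteoclasts and giant cells, rose from 0.304, 0.503 and 2.87 CPM to 1.26, 2.27 and 11.9 CPM (log2 fold change 2.05, adjusted p = 0.0205). The orphan receptor Gprc5c rose by 2.07 (adjusted p = 0.0136). Mex3b, an RNA-binding ubiquitin ligase, fell from 2.13, 3.12 and 2.32 CPM to 0.105, 0.363 and 0.127 CPM (log2 fold change -3.53, adjusted p = 0.0216). Klk1b11, a kallikrein of a family of close copies, fell by 2.06 (adjusted p = 0.0128), Prrg4 by 2.09 (adjusted p = 0.0158) and the noncoding RNA Eldr by 2.01 (adjusted p = 0.0481) on the log2 scale. Hyls1, a protein of centrioles, had at most 1 count in every 4OHT library and a mean at least 3.12-fold lower than that of ctrl, taking the mean limit that 3 counts set in the 4OHT libraries. The histone genes H2ac8 (log2 fold change -1.61, adjusted p = 0.00434) and H2ac23 (-1.07, adjusted p = 0.0363), named after their values were seen, are made in S phase and were missed by the cell cycle list, so they belong with the genes set aside.

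The groups with Ferrostatin-1 share no library with 4OHT and ctrl, and they give the effect of 4OHT where Ferrostatin-1 was also on the MEFs. The study's methods name no step that removed 4OHT or Ferrostatin-1 from the supernatants. In 4OHT against ctrl, drug carried over to the macrophages and content released by the MEFs cannot be told apart, and carry-over was not tested. In 4OHT+Fer1 against Fer1, 0 genes were higher at an adjusted p under 0.05 (0% of those tested) and 3 were lower (0.0233%), with 266 at an unadjusted p under 0.05 in either direction, and DESeq2 gave 2 higher and 10 lower. The 3 lower genes became 0 without replicate 1, 0 without replicate 2 and 1 without 4OHT replicate 1. Of the 44 genes called higher in 4OHT against ctrl, 31 had a log2 fold change above 0 in this comparison, beside 51.8% of all tested genes, with a median of 0.11, and none passed. Of the 29 called lower, 21 were below 0 with a median of -0.31, and 3 passed, Vegfa, Klk1b11 and Nlrp3. Vegfa stood at 4.39, 2.44 and 3.89 CPM in 4OHT+Fer1 and at 39.8, 31.0 and 24.5 CPM in Fer1 (log2 fold change -3.14, adjusted p = 0.000433). Nlrp3 was at 8.16, 4.35 and 3.79 CPM against 25.4, 27.0 and 19.4 CPM (log2 fold change -2.16, adjusted p = 0.0194). Mex3b, with 0, 0 and 0.205 CPM in 4OHT+Fer1 and 2.78, 2.19 and 1.54 CPM in Fer1, did not pass (adjusted p = 0.113), nor did Creb5, at 55.7, 31.3 and 34.0 CPM against 95.3, 110 and 85.0 CPM (log2 fold change -1.29, adjusted p = 0.300), or Bcl2a1b (-1.28, adjusted p = 0.0603). In fresh medium Vegfa stood at 57.0 and 67.3 CPM, Nlrp3 at 34.5 and 31.0 CPM, Mex3b at 2.92 and 2.34 CPM, Creb5 at 184 and 157 CPM and Bcl2a1b at 48.1 and 54.0 CPM, all above every 4OHT library.

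Whether the effect of 4OHT differed with and without Ferrostatin-1 was tested as an interaction, which passed for 4 genes (0.0311% of those tested, 797 at an unadjusted p under 0.05), 3 of them outside the lists set aside, Scd2, Fads2 and Id3. DESeq2 gave 88 genes, and edgeR gave 0 without replicate 1, 0 without replicate 2 and 26 without replicate 3. Without single libraries it gave 0 (4OHT replicate 1), 1 (4OHT replicate 2), 31 (4OHT replicate 3), 0 (ctrl replicate 2) and 12 (ctrl replicate 3). In 4OHT+Fer1 and Fer1, Scd2 stood at 99.3, 92.2 and 12.6 and at 117, 132 and 20.9 CPM, Fads2 at 39.2, 39.1 and 13.9 and at 55.5, 64.7 and 20.3 CPM, and Id3 at 7.21, 3.82 and 7.99 and at 9.03, 10.8 and 14.3 CPM. For the other called genes outside the lists the difference between both effects did not pass, which does not show that they were alike. Set directly against 4OHT+Fer1, 4OHT had 53 genes higher and 121 lower at an adjusted p under 0.05 by edgeR. That comparison shares the 4OHT libraries with the one used for selection. Fer1 against ctrl gave 0 and 0. Neither comparison was refitted with libraries left out.

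Fresh medium against Fer1 supernatant is the other comparison that shares no library with 4OHT and ctrl, although all come from one fit with shared replicate terms. It had 631 genes higher (4.91% of those tested) and 663 lower (5.16%) at an adjusted p under 0.05, which became 52 and 123 without replicate 1 and 25 and 62 without replicate 2. Of the 44 genes called higher in 4OHT, 43 had a log2 fold change above 0 here, beside 51.4% of all tested genes, 32 passed and the median was 1.93. Of the 29 called lower, 21 were below 0, 16 passed downward, 1 passed upward (Vegfa) and the median was -1.35. Set directly against fresh medium, 4OHT had 0 of the 44 genes higher and 11 lower at an adjusted p under 0.05 by edgeR. Of the 29, 4 were higher and 10 lower in that comparison, which shares the 4OHT libraries with the one used for selection. None of the 44 rises was thus shown to exceed the level in medium that never met MEFs. The genes of several groups lay in fresh medium at or beyond their level in 4OHT. H2-Ab1 stood at 381 and 257 CPM in medium replicates 1 and 2, Ciita at 58.4 and 52.3 CPM and Clec7a at 776 and 968 CPM. Id3 stood at 286 and 216 CPM and Marco at 8.001 and 12.1 CPM. Scd2 had 4.83 and 2.56 CPM and Fads2 2.29 and 2.34 CPM, with log2 fold changes against Fer1 of -5.12 and -4.71.

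**Figure D4:**
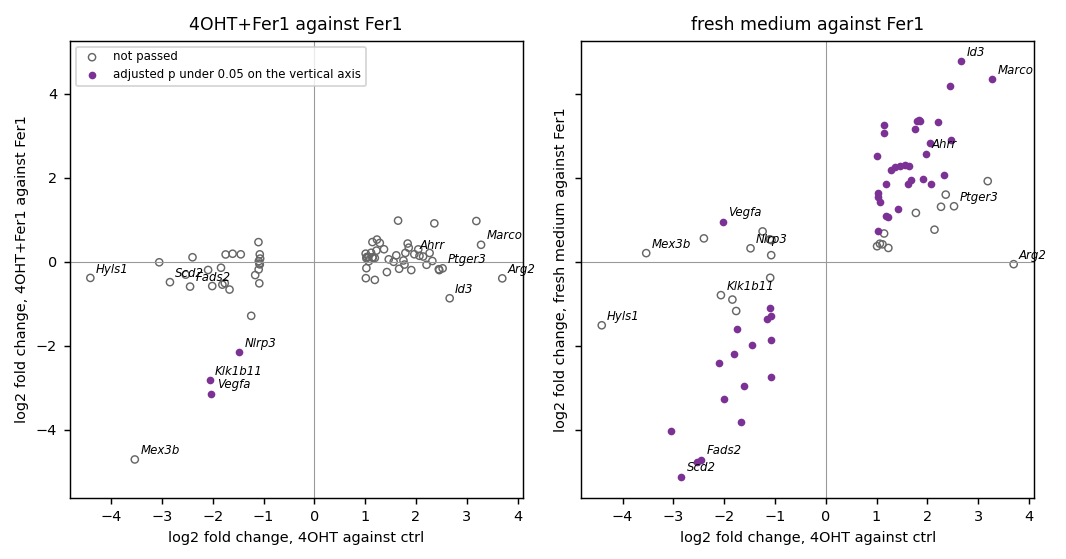
Log2 fold changes of the 73 called genes outside the cytokine, cell cycle and sterol lists in 4OHT against ctrl (horizontal, by which they were selected) and in 2 comparisons that share no library with it (vertical): 4OHT+Fer1 against Fer1, left, and fresh medium against Fer1, right; filled points have an adjusted p under 0.05 on the vertical axis. On the left 3 points are filled, and on the right 49 are, 32 of them among the 44 genes higher in 4OHT.

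Others of the called genes were not shown to differ between fresh medium and Fer1. Arg2 stood at 0.381 and 3.23 CPM in medium and at 1.98, 1.46 and 1.54 CPM in Fer1 (log2 fold change -0.06, adjusted p = 0.974). Ptger3 had 1.52 and 2.78 CPM in medium (log2 fold change 1.32, adjusted p = 0.205), Clec4n 61.6 and 77.2 CPM (1.31, adjusted p = 0.0554), Grem1 6.98 and 1.45 CPM (0.77, adjusted p = 0.221) and Cx3cr1 353 and 481 CPM (-0.90, adjusted p = 0.153). Ifi27, the kinase gene Eef2k, the orphan receptor gene Gpr162 and Dmxl2, which encodes a regulator of the vacuolar proton pump, the last 3 named after their values were seen, were in the same group, with adjusted p-values between 0.0757 and 0.504. Gpr162 stood at 68.2, 77.3 and 69.7 CPM in 4OHT, at 32.8, 28.7 and 29.5 CPM in ctrl (log2 fold change 1.23, adjusted p = 0.0214) and at 31.7 and 42.9 CPM in medium. Against ctrl, fresh medium was higher for Clec4n (log2 fold change 1.37, adjusted p = 0.0447 by edgeR) and Dmxl2 (0.76, adjusted p = 0.0461). In 4OHT against fresh medium, Cx3cr1 was lower (-1.37, adjusted p = 0.0411). The other genes named so far in this paragraph did not pass there, with adjusted p-values between 0.0771 and 0.587. Ndrg2, also named after its values were seen, did differ from Fer1 in fresh medium. It stood at 5.48, 8.70 and 5.82 CPM in 4OHT against 30.5, 30.1 and 7.95 in ctrl (log2 fold change -1.67, adjusted p = 0.0270), and at 1.65 and 3.56 CPM in medium against 31.6, 33.9 and 23.5 CPM in Fer1 (log2 fold change -3.81, adjusted p = 0.000180).

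For single genes, an exact two-sided permutation test of 3 libraries against 3 cannot give a p under 0.1, and it gave that value for the genes whose groups were separate. In the GENCODE M21 annotation 31 of the 75 named genes that passed overlap another gene, 22 on the opposite strand (Ciita, Arg2 and Timp3 among them) and 15 on the same strand (Cx3cr1, Cd74 and Scd2 among them), and their reads may be shared. The sources used here do not state whether counting used the strand.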

How the data were processed

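RNA was isolated after 24 h and sequenced from the 3′ end (QuantSeq). According to the submitters' processing notes, reads were aligned with STAR 2.7.10a and quantified with Salmon 1.5.2. The authors deposited the estimated counts that Salmon gave per gene, without normalization. The notes name both GRCh38 and GRCm38, so no gene coordinates are given from the count table. The authors' table of their own comparisons, with log2 fold changes and p-values, was not used.

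Counts were rounded and fitted with edgeR 4.0.16 (R 4.3.3): filterByExpr, TMM factors, glmQLFit and glmQLFTest over 14 libraries with the replicate number as a block, and Benjamini-Hochberg adjustment over 12851 genes. Named genes were up to 6 members per list with an adjusted p under 0.05, up to 4 further abundant members, the 12 most changed called genes each way outside the 3 lists, leaving out predicted genes and small RNAs, and cell type markers. The contrast, lists and rule were chosen with earlier results of these data known. Replicate numbers were used to pair the samples. Deviations from group means correlated for each same-number pair of 4OHT and ctrl libraries (r between 0.186 and 0.293 across genes, which are not independent). Over all groups, 26 same-number pairs had a median r of 0.247 and 52 other pairs a median of -0.139. The same-number pair of ctrl and medium replicate 2 had an r of only 0.0022. Replicate libraries differed by more than sampling noise (chi-square over its degrees of freedom from 11.1 to 82.0). At these depths 3 counts, the limit used for genes at or near 0, equal 0.271 to 0.383 CPM, which covers counting error only. Log2 differences within replicates used a prior count of 2. The alternatives tried were DESeq2 1.42.0, its size factors, other filters, no block, fewer groups, no fold threshold and libraries left out; for the interaction and the comparisons with Fer1 they were added after seeing the data. Scripts were tested on simulated data.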

Additional observations from a re-analysis of the deposited data

Results flagged for a closer look

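In 4 genes the effect of 4OHT without Ferrostatin-1 differed from its effect with it by a test of the difference itself, in log2 units of (4OHT against ctrl) minus (4OHT+Fer1 against Fer1) and with adjusted p-values from edgeR. The difference was -2.36 for Scd2 (standard error 0.27, adjusted p = 0.00939) and -1.86 for Fads2 (standard error 0.26, adjusted p = 0.0423). For Id3 it was 3.53 (standard error 0.51, adjusted p = 0.0489). Clspn, a replication checkpoint gene of the cell cycle list, differed by -1.70 (standard error 0.19, adjusted p = 0.00939).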

How the results depend on the processing

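No log2 fold change of the 111 genes named with one changed sign under any of the 16 alternatives fitted, which the selection of many of them on these libraries favours. Counts moved more. In the order higher in all, lower in all, higher outside the 3 lists and lower outside them, the main counts of 45, 98, 44 and 29 became 75, 184, 74 and 41 with no filter beyond 1 count, 84, 193, 83 and 45 with DESeq2, 30, 66, 29 and 21 without medium, and 62, 130, 60 and 41 with no fold threshold. Without the replicate block they were 1, 5, 1 and 1 (869 genes at an unadjusted p under 0.05), and with only the 4OHT and ctrl libraries, 0, 0, 0 and 0 (835). With replicates or libraries left out they ranged from 0 to 94, 0 to 97, 0 to 93 and 0 to 50. Of the 75 named genes that passed, 1 passed without the block, 46 without medium and 75 with DESeq2. The 4 interaction genes became 32 with no filter, 88 with DESeq2, 0 without the block, 2 without medium and 0 to 31 with libraries left out. Medium against Fer1, with 631 higher and 663 lower, gave 167 and 356 without the block and 25 to 796 and 62 to 800 with libraries left out; 4OHT+Fer1 against Fer1, with 0 and 3, gave 1 and 8 with no filter, 2 and 10 with DESeq2, 0 and 1 without the block, 0 and 1 without medium, and 0 and 0 to 4 with libraries left out. Genes near 3 counts, such as Sox9 and Hyls1, are limited by depth. The cause of these shifts was not tested.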
